A study of Mus musculus with 7 samples.

Results

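Fc receptors bind the constant region of antibodies, and the genes analysed here are Fcgr1, Fcgr2b, Fcgr3, Fcgr4, Fcer1g and Fcgrt. They were chosen by symbol in the deposited gene table and are 6 of its 28666 genes. The cells were bone marrow-derived dendritic cells (BMDCs) of female C57BL/6 mice aged 6 to 8 weeks, grown for 7 days with GM-CSF and IL-4 and then cultured across a Transwell membrane from MC38 mouse colon carcinoma cells. After 24 h with DON (the glutamine antagonist diazo-oxo-norleucine, 5 µM), BMDCs were sorted by flow cytometry into immature cells (3 libraries) and mature cells (4 libraries). The sample labels give only the stage, and a legend names DMSO as well as DON for the sort, so any difference in treatment between libraries is not known. For its co-cultures the paper pairs DON with added glutamine and DMSO with a lower glutamine level. The labels give no glutamine level. The markers of the sort are not given in the sources used here. For other samples the paper gates mature dendritic cells as positive for CD80 and CD86. The labels do not say whether libraries of a group came from separate mice or cultures, so p-values measure the spread between these libraries, which may be technical.

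Antibody-coated particles and immune complexes are taken up by dendritic cells through Fc gamma receptors, and the same receptors tune the cells' activation. The activating receptors encoded by Fcgr1, Fcgr3 and Fcgr4 do not signal alone: they pair with the common gamma chain encoded by Fcer1g, whose cytoplasmic ITAM (immunoreceptor tyrosine-based activation motif) is phosphorylated by Src family kinases and recruits the kinase SYK. The inhibitory receptor encoded by Fcgr2b binds the same complexes and carries an ITIM (immunoreceptor tyrosine-based inhibitory motif) in its own tail, which recruits phosphatases. Fcgrt encodes the heavy chain of the neonatal Fc receptor, FcRn, a relative of MHC class I that works inside endosomes, returns IgG to the surface and does not signal through an ITAM.

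The coding bases that set the activating and the inhibitory arm apart are short. They were read from GENCODE M21 transcripts (GRCm38), Fcer1g-201 and Fcgr2b-201, and capitals mark the codons of the motif tyrosines.
Fcer1g ITAM: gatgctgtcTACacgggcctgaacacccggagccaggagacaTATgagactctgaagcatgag
Fcgr2b ITIM: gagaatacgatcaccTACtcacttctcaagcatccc
The Fcer1g stretch covers codons 62 to 82 within chr1:171229880-171230081 on the minus strand, a span that includes an intron. It has 2 tyrosine codons, and the pattern was found in 1 of the 2 complete coding transcripts of the gene. The Fcgr2b stretch covers codons 314 to 325 at chr1:170961062-170961097 on the minus strand and has 1. No ITAM pattern was found in the coding sequences of Fcgr1, Fcgr3, Fcgr4, Fcgr2b or Fcgrt. The looser ITIM pattern also matched toward the end of the coding sequence of Fcgr1 and Fcgr4 and once in Fcer1g, so a match describes letters and not a working site.

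4 of the genes lie on chromosome 1 within 275.7 kb. Fcgr2b spans 170958617 to 170976547, Fcgr4 171018920 to 171029761, Fcgr3 171051174 to 171064935 and Fcer1g 171229572 to 171234365. Fcgr1 lies on chromosome 3 from 96282909 to 96293969, and Fcgrt on chromosome 7 from 45092990 to 45103851. These positions are those of the deposited table, and they equal the GENCODE M21 genes on GRCm38 in all 6 cases.

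Fcgr2b and Fcgr3 are close relatives, and their reads could be assigned to the wrong gene. Their coding sequences were identical at 86.7% of 782 aligned bases, whereas the other pairs among the 4 Fc gamma receptors reached 64.1% to 68.6%. The stretch around their longest exact match, 129 bases, is shown with the bases that differ in capitals.
Fcgr3: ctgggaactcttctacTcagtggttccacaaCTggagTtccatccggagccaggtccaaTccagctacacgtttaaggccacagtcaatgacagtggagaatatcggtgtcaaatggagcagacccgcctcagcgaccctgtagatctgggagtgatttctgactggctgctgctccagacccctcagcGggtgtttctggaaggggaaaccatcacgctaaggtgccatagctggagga
Fcgr2b: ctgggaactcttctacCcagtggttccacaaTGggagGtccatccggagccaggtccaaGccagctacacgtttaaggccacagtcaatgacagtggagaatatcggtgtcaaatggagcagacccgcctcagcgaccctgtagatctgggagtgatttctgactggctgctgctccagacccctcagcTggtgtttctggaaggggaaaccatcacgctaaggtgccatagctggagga
The Fcgr3 stretch lies within chr1:171054116-171057852 and the Fcgr2b stretch within chr1:170966623-170968141, both on the minus strand and each across an intron. Over these 240 coding bases 6 differ. Reads were 150 bases long, and no 150-base window of the coding transcripts of Fcgr1, Fcgr3, Fcgr4, Fcer1g or Fcgrt occurred without mismatch in a transcript of another gene. For Fcgr2b 2.88% of 3955 windows did, none of them in another Fc receptor gene.

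In each library the 6 genes were read from 54846746 to 67973086 counts in total. Genes of dendritic cells were read beside the labels of the groups. The costimulatory ligands Cd80 and Cd86 had log2 fold changes of 2.49 and 3.37 in mature over immature cells (edgeR quasi-likelihood test, adjusted p = 2.5e-07 and 3e-07). Their proteins may have defined the sort, so this rise is no independent check of the labels. The dendritic cell integrin Itgax averaged 1386 ± 89.4 (SD, n = 3) in the immature group and 1041 ± 117 CPM (SD, n = 4) in the mature group. CPM are counts scaled to a common library size after TMM normalization. Mature replicate 3 stood apart: the median chi-square of its counts against the other mature libraries was 17.7 to 25.6, compared with 4.26 to 5.27 among those. Its deviations fell with gene length (Spearman rho across genes -0.405). For the other mature libraries rho was 0.206 to 0.315. Mature replicate 3 was part of the reference for those libraries, so their positive rho can follow from its trend. No separate length trend is read from them. Genes of heart muscle summed to at most 5.61 CPM in immature libraries, 27.1 CPM in mature replicate 1 and up to 851 CPM in the other mature libraries, among them Myh6 and Myl2.

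Of the 6 Fc receptor genes, 5 passed both criteria, and all 5 were lower in mature cells. A gene passed where its log2 fold change was 1 or more in size with an adjusted p below 0.05. The activating receptors Fcgr1, Fcgr3 and Fcgr4, their shared chain Fcer1g and the inhibitory receptor Fcgr2b fell together, while Fcgrt did not pass. The test was edgeR's quasi-likelihood test on the deposited counts, with Benjamini-Hochberg adjustment over all 17461 genes kept by its filter, all 6 members included. Over those genes 23.1% passed both criteria, 9.95% lower and 13.2% higher in mature cells. The median log2 fold change was -1.88 over the 6 members and 0.05 over all tested genes. The call count was 5 under each of the 18 alternatives tried, also without mature replicate 3 and without mature replicates 1 and 3. In bulk RNA, fewer cells of a type and less RNA per cell cannot be told apart.

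**Figure D1:**
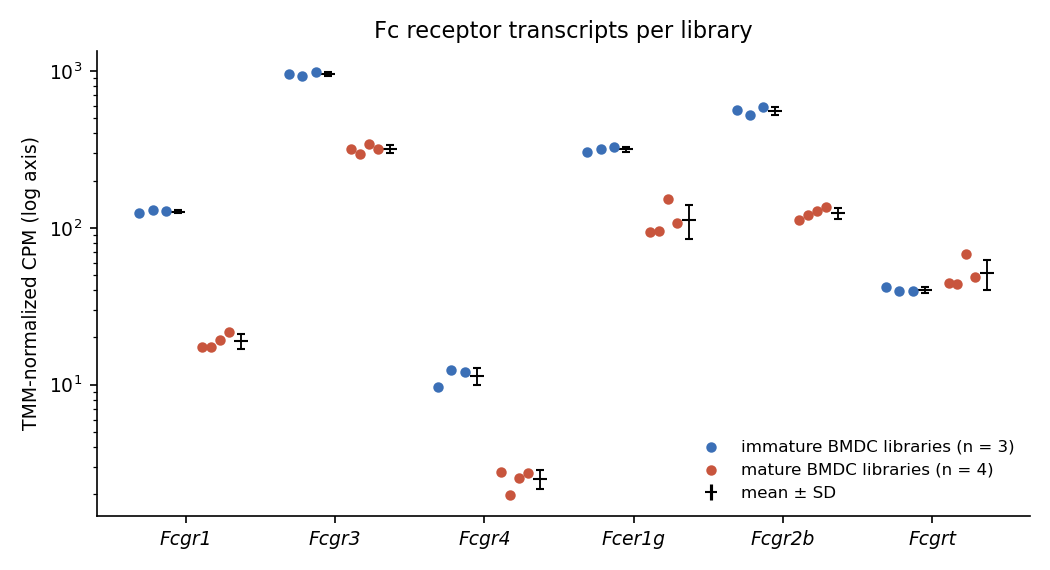
TMM-normalized CPM of the 6 Fc receptor genes in each library on a log axis, with immature libraries in blue, mature libraries in red and the mean ± SD beside each group. The groups are apart for all 6 genes, with mature libraries lower except for Fcgrt, whose highest mature value is 67.9 CPM.

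Fcgr1 encodes the high-affinity IgG receptor, CD64, which is also used to tell macrophages and monocyte-derived cells from other dendritic cells. It was read at 123, 130 and 128 CPM in immature replicates 1 to 3. In mature replicates 1 to 4 it stood at 17.4, 17.3, 19.4 and 21.8 CPM. All mature libraries lay far below all immature ones, and the 2 groups did not overlap. The immature mean was 127 ± 3.27 (SD, n = 3) and the mature mean 19.0 ± 2.11 CPM (SD, n = 4). Its log2 fold change of -2.74 (SE 0.10, edgeR adjusted p = 3.8e-07) was the largest fall among the members and ranked 163 of all tested genes from the largest fall.

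Fcgr3 encodes the low-affinity activating receptor CD16, and it was the most abundant of the members in both groups. Its immature libraries held 961, 923 and 983 CPM. Mature replicates 1 to 4 held 318, 294, 341 and 319 CPM. The values within each group lay close together, and the lowest immature library was above the highest mature one. The log2 fold change was -1.59 (SE 0.08, edgeR adjusted p = 1.1e-06), which left the mature cells at 318 ± 19.0 CPM (SD, n = 4) against 956 ± 30.6 CPM (SD, n = 3).

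Fcgr4 encodes an intermediate-affinity activating receptor that binds IgG2a and IgG2b, and it was the rarest of the 6. The 3 immature libraries had 9.69, 12.3 and 12.1 CPM, from 569 to 779 counts. The mature libraries had 2.76, 1.99, 2.53 and 2.73 CPM, from 132 to 182 counts. Immature replicate 1 was the lowest of its group and still above every mature library. The log2 fold change was -2.18 (SE 0.17, edgeR adjusted p = 1.4e-05).

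Fcer1g encodes the signalling chain that the activating receptors share. Its immature values were 304, 320 and 328 CPM. Its mature values were 93.7, 95.6, 153 and 107 CPM. Mature replicate 3, the library that stood apart, was the highest of its group, and the groups did not overlap. The log2 fold change was -1.50 (SE 0.17, edgeR adjusted p = 0.00012), and -1.66 without mature replicate 3. Fcer1g has an exon length of 874 bases, the shortest of the members. The part that the length trend of mature replicate 3 had in its value was not tested.

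Fcgr2b, the inhibitory receptor, stood at 561, 522 and 588 CPM in immature cells. It stood at 112, 121, 128 and 136 CPM in mature cells. The immature mean of 557 ± 32.9 (SD, n = 3) compared with 124 ± 10.1 CPM (SD, n = 4) in mature cells, every mature library lay below every immature one, and immature replicate 2 was the lowest of its group. The log2 fold change of -2.16 (SE 0.09, edgeR adjusted p = 5.4e-07) had a 95% interval from -2.37 to -1.96. This interval overlapped that of Fcgr4 (-2.57 to -1.79) and lay between those of Fcgr1 (-2.97 to -2.51) and Fcgr3 (-1.77 to -1.41) without overlapping either. Gm38204, a gene annotated on the opposite strand across the start of Fcgr2b, had at most 0.198 CPM in a library.

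Fcgrt was the exception. Immature libraries had 42.2, 39.3 and 39.3 CPM, and mature libraries had 44.8, 43.6, 67.9 and 48.6 CPM. Mature replicate 3 was the highest, the other mature libraries lay just above the immature ones, and the groups did not overlap. The log2 fold change was 0.35 (SE 0.16, 95% interval -0.01 to 0.70), with an edgeR adjusted p of 0.102, and Fcgrt did not pass the criteria. Without mature replicate 3 it was 0.21 with an edgeR adjusted p of 0.0241, still short of the fold change criterion. The adjusted p ran from 0.0191 to 0.231 over the 17 alternatives and was under 0.05 in 7 of them. Groups that did not overlap in CPM were common, at 52.1% of all tested genes, so their separation in all 6 members is read against that share.

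**Figure D2:**
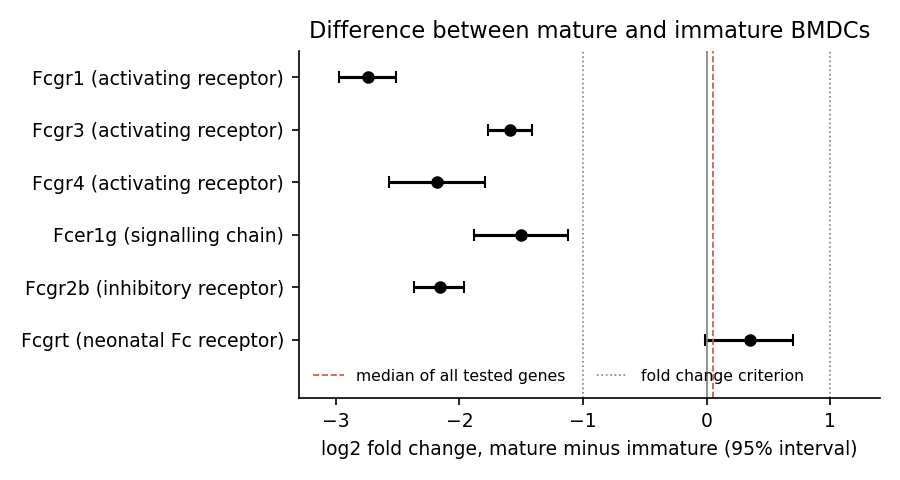
log2 fold change of each Fc receptor gene, mature minus immature, with its 95% interval from the quasi-likelihood fit. The dotted lines mark the fold change criterion and the dashed line the median of all tested genes. The intervals of 5 genes lie below -1, and that of Fcgrt runs from -0.01 to 0.70.

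Levels of different genes were compared in FPKM, the deposited unit that also divides by gene length. In immature cells the order was Fcgr3 at 484 ± 7.44, Fcer1g at 319 ± 10.01, Fcgr2b at 84.5 ± 3.28, Fcgr1 at 43.1 ± 1.55, Fcgrt at 16.8 ± 0.898 and Fcgr4 at 7.95 ± 1.00 FPKM (SD, n = 3), with no overlap between neighbours in that order. In mature cells Fcgr3 at 173 ± 4.40 and Fcer1g at 121 ± 23.5 FPKM (SD, n = 4) still led. Fcgrt at 22.9 ± 3.83 and Fcgr2b at 20.3 ± 1.62 FPKM came next with overlapping libraries, and Fcgr1 at 6.92 ± 0.736 and Fcgr4 at 1.88 ± 0.259 FPKM were last. The place of Fcgr2b depends on the gene length used. The lengths behind the FPKM values followed the union of all annotated exons, which is 5790 bases for Fcgr2b against a median of 1520 bases for its coding transcripts, so the deposited FPKM of Fcgr2b is low relative to that of Fcgr3 (1736 and 1324 bases) and of Fcgrt (2102 and 1187 bases). Per kb of the median coding transcript, a scale added after the data were seen, mature libraries held 73.8 to 89.5 CPM of Fcgr2b and 36.7 to 57.2 CPM of Fcgrt. Fcgr2b was then above Fcgrt in every mature library as well as in every immature one. This was read for the median length only, and the longest coding transcripts, of 3544 and 1770 bases, were not used. The order of the pair in mature cells thus depends on the length used.

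The balance of activating to inhibitory transcripts was described per library as the share of Fcgr1, Fcgr3 and Fcgr4 in the summed FPKM of the 4 Fc gamma receptors. No test was made, since it is a score over the members. The share was 86.3%, 86.8% and 86.0% in immature replicates 1 to 3 and 90.8%, 89.4%, 90.3% and 89.2% in mature replicates 1 to 4. All mature libraries were above all immature ones, by a few percentage points. The level of the share depended on the scale. The means were 66.3% and 73.2% in CPM and 68.04% and 75.31% with the median coding transcript length, immature first. These scales only reweight the genes, alike in every library, so they are no independent check of the direction. Fcgr3 carried the share. It made up 90.5% ± 0.535 (SD, n = 3) of the activating FPKM in immature and 95.2% ± 0.406 (SD, n = 4) in mature cells, and without Fcgr3 the share ran the other way, from 37.7% ± 1.97 to 30.2% ± 1.42.

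The single ratios show the same split. The FPKM ratio of Fcgr3 to Fcgr2b was 5.71, 5.89 and 5.58 in immature replicates 1 to 3. In mature replicates 1 to 4 it was 9.47, 8.08, 8.90 and 7.82, above every immature library. With coding transcript lengths that ratio was 1.97 ± 0.0540 (SD, n = 3) and 2.95 ± 0.260 (SD, n = 4). Another length multiplies the ratio by the same factor in every library, so its direction and the lack of overlap could not change. That of Fcgr1 to Fcgr2b was the reverse, 0.511 ± 0.0389 (SD, n = 3) in immature and 0.341 ± 0.0165 (SD, n = 4) in mature cells, with no overlap. The ratio of Fcgr4 to Fcgr2b overlapped, at 0.0944 ± 0.0146 and 0.0931 ± 0.0153. Relative to the summed activating FPKM, Fcer1g stood at 0.597 ± 0.0243 in immature and 0.664 ± 0.130 in mature cells, and these overlapped as well, with mature replicate 3 the highest at 0.853.

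**Figure D3:**
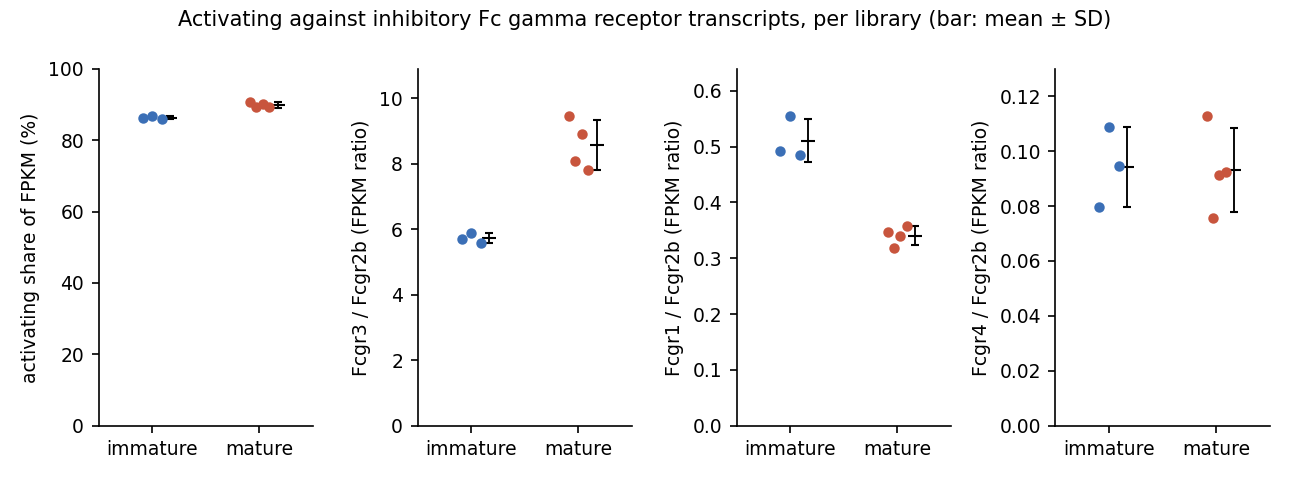
Activating share of Fc gamma receptor FPKM in percent, and the FPKM ratios of Fcgr3, Fcgr1 and Fcgr4 to Fcgr2b, 1 point per library with the mean ± SD of each group, all axes from 0. The share and the Fcgr3 ratio are higher in mature libraries, the Fcgr1 ratio is lower, and the Fcgr4 ratio overlaps.

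The bases just before the start sites were compared across the members, 5 of which fell. RefSeq start sites on GRCm38.p6 were matched for all 6 genes. The motif GAGGAA, a core bound by ETS factors such as PU.1, was searched on both strands in the 250 bases before the start. It was found in Fcgr1, Fcgr3 and Fcgr4, and 23.3% of 32851 promoters of the same length held it. It was not found in Fcgrt, nor in Fcer1g and Fcgr2b, which fell like the activating receptors, and nothing is drawn from it about the falls. The last 100 bases before the start of these 3 genes are shown, with the match in capitals (it reads TTCCTC on this strand).
Fcgr1: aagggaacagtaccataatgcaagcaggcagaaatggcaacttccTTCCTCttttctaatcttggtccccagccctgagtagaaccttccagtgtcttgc
Fcgr3: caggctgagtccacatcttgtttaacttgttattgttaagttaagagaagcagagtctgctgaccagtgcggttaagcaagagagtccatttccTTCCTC
Fcgr4: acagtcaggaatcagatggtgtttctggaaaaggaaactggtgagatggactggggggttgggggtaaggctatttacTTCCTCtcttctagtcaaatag
The Fcgr1 bases lie at chr3:96293970-96294069 on the minus strand, those of Fcgr3 at chr1:171059404-171059503 on the minus strand and those of Fcgr4 at chr1:171018826-171018925 on the plus strand. The match ends 49 bases before the start of Fcgr1, directly at that of Fcgr3 and 16 bases before that of Fcgr4. The RefSeq start of Fcgr3 lies inside the span of the GENCODE gene, and the table lists a second one. 9 other patterns were searched in the same way. The STAT pattern TTCNNNGAA (7.02% of all promoters) was in Fcgr1, an interferon-stimulated response element (2.98%) in Fcgr4, the C/EBP-like TTNCNNAA (36.9%) in 3 members, the RUNX pattern TGNGGT (40.1%) in 4, and GGAA (93.5%), which GAGGAA contains, in all 6. The TATA box TATAAA (12.4%), the E-box CACGTG (6.02%), the AP-1 site TGANTCA (6.75%) and the GC box GGGCGG (32.7%) were in none. A match is a description of letters, and GAGGAA was printed after the matches were seen.

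Genes that transmit the signal of the ITAM include members that fell and members that rose. Of 26 genes of ITAM signalling, all tested, 3 were higher and 6 lower in mature cells, where 13.2% of all tested genes were higher and 9.95% lower, with a median log2 fold change of -0.25. The Src family kinase Fgr fell from 65.2 ± 1.96 (SD, n = 3) to 9.68 ± 1.06 CPM (SD, n = 4), and each mature library, at 8.86 to 11.2 CPM, was below each immature one (log2 fold change -2.75, SE 0.10, edgeR adjusted p = 4.1e-07). The adaptors Lat2 and Sh3bp2 fell as well, with log2 fold changes of -2.62 and -1.16. The kinase Fyn, another Src family member, rose from 71.3 ± 7.5 (SD, n = 3) to 220 ± 6.90 CPM (SD, n = 4), with log2 fold change 1.63 (SE 0.09, edgeR adjusted p = 2.2e-06). Pik3r1, a regulatory subunit of PI3 kinase, and Malt1, the paracaspase downstream of CARD9, rose by 1.94 and 1.49. The other 3 genes that fell were Lyn, Plcg2 and Lcp2. Syk itself, the kinase recruited to the ITAM and named here after its values were seen, had a log2 fold change of 0.35 (edgeR adjusted p = 0.0143), short of the fold change criterion, at 527 ± 18.7 (SD, n = 3) and 672 ± 61.3 CPM (SD, n = 4).

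Of the 13 genes of inhibitory signalling, 1 was higher and 4 lower, with a median log2 fold change of -0.34. Over all tested genes 13.2% were higher and 9.95% lower. Pag1, an adaptor that recruits the kinase CSK, was lowest in mature cells at a log2 fold change of -2.74, followed by the phosphatase Ptpn22 at -2.42 and the docking proteins Dok3 at -2.21 and Dok2 at -2.02 (edgeR adjusted p from 2.6e-06 to 1.2e-05). Dok2, for example, was at 174 to 184 CPM in immature and 34.8 to 57.6 CPM in mature libraries. The ubiquitin ligase Cblb rose from 38.8 ± 2.57 (SD, n = 3) to 188 ± 34.2 CPM (SD, n = 4), with log2 fold change 2.28. Inpp5d, which encodes the phosphatase SHIP1 that Fcgr2b recruits, is named after its values were seen and was at 237 ± 13.4 (SD, n = 3) and 221 ± 30.2 CPM (SD, n = 4), with overlapping groups (edgeR adjusted p = 0.533).

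A further list held receptors taken to use Fcer1g, together with the adaptors Tyrobp and Hcst. Which adaptor each listed receptor uses was not examined in these data. Among 11 tested genes of 16 listed, 6 were lower and 0 higher, with a median log2 fold change of -1.11. Over all tested genes 9.95% were lower and 13.2% higher. By DESeq2 and limma likewise 0 were higher, and 1 had an unadjusted edgeR p under 0.05 in that direction. The lower genes were Cd300lb (-2.61), the dectin-2 gene Clec4n (-2.16), Lilra6 (-1.77), Lilra5 (-1.43), Tyrobp (-1.28) and Clec4d (-1.11) on the log2 scale. Clec4n, a receptor for fungal mannans, was at 866 to 939 CPM in immature and 153 to 238 CPM in mature libraries. Tyrobp, which encodes the ITAM adaptor DAP12, was at 207, 224 and 245 CPM in immature and 83.3, 73.0, 128 and 86.8 CPM in mature replicates 1 to 4. As with Fcer1g, mature replicate 3 was the highest of its group. Csf2rb, the common beta chain of the GM-CSF receptor, is named after its values were seen and had a log2 fold change of 0.31 with overlapping groups.

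Other Fc and Fc-like receptors were mostly rare. Of 13 listed, 8 passed the filter on low counts, a filter that a gene can pass through 1 group alone. Of these 1 was higher and 3 lower, where 13.2% of all tested genes were higher and 9.95% lower. The median log2 fold change was -0.22, also with Fcmr at the bound given here. Fcrls fell from 164 ± 7.89 (SD, n = 3) to 17.9 ± 3.21 CPM (SD, n = 4), with log2 fold change -3.20 (SE 0.15, edgeR adjusted p = 8e-07). Fcrlb and Fcrl1 fell by 1.37 and 1.56 on the log2 scale, from 4.80 and 1.08 CPM. Fcmr, the IgM receptor, had no count in immature libraries and 15 to 21 counts in mature ones, which is at least 5.70-fold higher when the immature libraries are set to 3 counts each. The high-affinity IgE receptor genes Fcer1a and Ms4a2 had at most 0.106 and 0.341 CPM in a library.

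No gene listed for the phagocytosis machinery downstream of Fc gamma receptors passed both criteria in the direction of the receptors' fall. Of 29 tested genes of 30, 5 were higher and 0 lower, with a median log2 fold change of 0.00. Over all tested genes 13.2% were higher and 9.95% lower. The share past the criteria in either direction was 17.2% in the list and 23.1% over all tested genes. DESeq2 and limma also called 0 lower. At an unadjusted edgeR p under 0.05, 8 were lower, for example the Arp2/3 subunit Arpc1b at a log2 fold change of -0.71 (edgeR adjusted p = 0.00015), named after its values were seen. Scin, the actin-severing protein adseverin, rose from 1.30, 1.67 and 1.64 CPM in immature libraries to 52.3, 44.7, 41.7 and 44.2 CPM in mature ones, with log2 fold change 4.89 (SE 0.15, edgeR adjusted p = 1.8e-07). Marcksl1 and Marcks, which bind actin and phosphoinositides at the membrane, rose by 2.88 and 1.39. The Fc gamma R-mediated phagocytosis pathway of KEGG, as annotated in the deposited table, was added after the data were seen. In it 8 of 82 tested genes were higher and 7 lower, 2 of them the members Fcgr1 and Fcgr2b, with a median of -0.10. Its share past the criteria, 18.3%, was below that of all tested genes. A list drawn up around Fcgrt held 10 genes, for its light chain, endosomal recycling and antigen presentation (Cd1d1 and Tapbp). Whether each binds FcRn was not examined. Of these 10 genes 1 passed, Rab11fip5 of the recycling endosome (log2 fold change -1.03), where 23.1% of all tested genes passed. Its log2 fold change lies at the criterion, and it did not pass in 8 of 18 alternatives, among them those without immature replicate 3 and without mature replicate 3. The light chain B2m was at 3118 ± 132 (SD, n = 3) and 3202 ± 538 CPM (SD, n = 4) with overlapping groups.

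**Figure D4:**
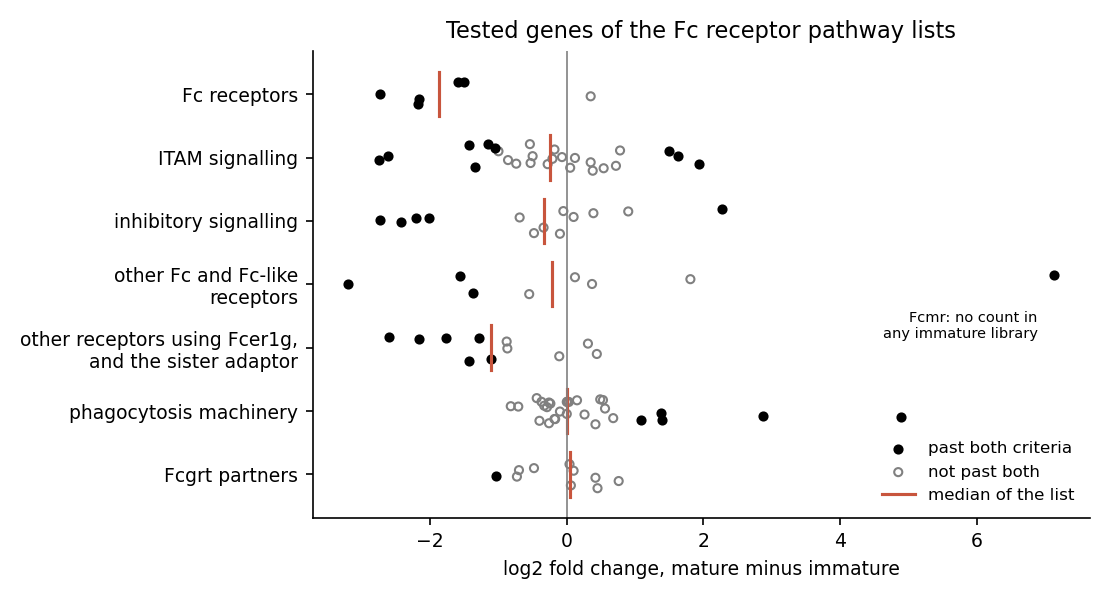
log2 fold change, mature minus immature, of the tested genes in each list, filled where past both criteria and open where not, with the median of the list as a red line. The medians are -1.88 for the Fc receptors, -1.11 for the list of receptors taken to use Fcer1g with the adaptors, and between -0.34 and 0.05 for the remaining lists. Fcmr, far right, had no count in any immature library, so its fitted value is no measured fold.

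Within 250 kb of a member on its chromosome, 84 other genes were tested, of which 10 were higher and 4 lower, with a median log2 fold change of 0.25. Over all tested genes 13.2% were higher and 9.95% lower. The 10 higher genes include Hjv and Hrc, named after their values were seen. In mature replicate 1 Hjv had no count and Hrc 0.121 CPM, whereas mature replicates 2 to 4 held 2.88 to 3.88 and 6.59 to 10.1 CPM. These are the libraries with more heart muscle RNA, and the groups overlapped for both genes. Around the 4 members on chromosome 1, 2 of 30 genes were higher and 2 lower: Cfap126 (1.41), Tstd1 (2.24), Atf6 (-1.01) and the listed Fcrlb (-1.37), the first 3 named after their values were seen. Near Fcgr1 on chromosome 3, Otud7b was higher (log2 fold change 1.38) and H2bc21 lower (-1.32). Near Fcgrt on chromosome 7, Tbc1d17 (1.96), Cpt1c (1.79) and Rcn3 (2.54) were higher and Trpm4 lower (-1.27). Rcn3 lies 0.769 kb from Fcgrt and was at 0.83 ± 0.0489 (SD, n = 3) and 4.83 ± 1.43 CPM (SD, n = 4).

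**Figure D5:**
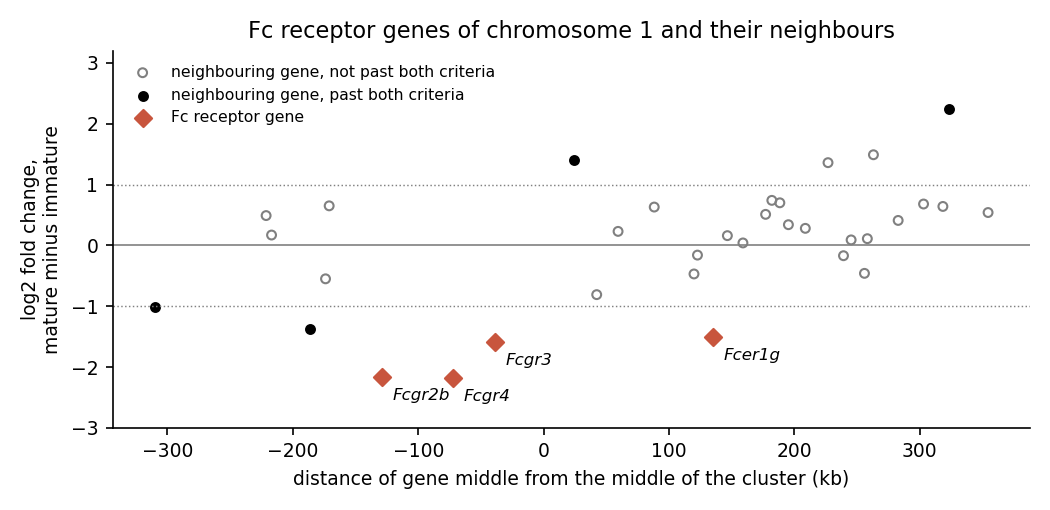
log2 fold change of the 4 Fc receptor genes of chromosome 1 (diamonds) and of the 30 tested genes within 250 kb of them, against the distance of each gene's middle from the middle of the cluster in kb. The 4 receptor genes lie between -2.18 and -1.50, and 2 of the neighbours pass both criteria in each direction.

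Genes with the most similar pattern over the 7 libraries were ranked by Pearson's r of log2 CPM among 8975 tested genes with a mean of at least 10 CPM. The 7 points fall in 2 groups and share library and normalization, so r mostly follows the difference between groups and is given as a description. Closest to Fcgr1 were the chemokine receptor Ccr1 and Arg1, an enzyme that breaks down arginine, at 0.9997 and 0.9995. Closest to Fcgr3 were Hsd17b12 and Smpdl3a, and to Fcgr2b Plin3 and Galnt6, all at 0.9995 or above. Fcer1g was most like Arf1 and Slfn2 (0.9996 and 0.9991) and Fcgr4 like Sirpb1b and Mogs (0.9985 and 0.9973). Fcgrt stood apart, closest to the ribosomal pseudogenes Rpl10-ps3 and Rpl10-ps1 at 0.9946 and 0.9941, whose highest library was likewise mature replicate 3. An r over 0.99 was reached with 5 genes by Fcgrt and with 122 to 477 genes by the other members.

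Most macrophage and monocyte markers moved in the direction of the receptors that fell. Of 13 macrophage and monocyte markers 10 were lower in mature cells, where 9.95% of all tested genes were. By edgeR, DESeq2 or limma 0 were higher, and 0 were higher at an unadjusted edgeR p under 0.05. The summed level of the markers was 2587 to 2704 CPM in immature and 516 to 649 CPM in mature libraries, with no marker at 0 throughout. The lower markers include the complement genes C1qa, C1qb and C1qc (log2 fold changes -2.60 to -2.79), Csf1r (-2.62), Mrc1 (-3.43) and Adgre1 (-1.07). The groups of Ly6c2, Cd163 and Marco overlapped, and Marco had a log2 fold change of 0.63. The part that macrophage-like cells among the immature BMDCs had in the falls of the Fc receptor genes was not tested. Of 9 maturation markers 8 were higher in mature cells, where 13.2% of all tested genes were. These markers include Cd80 and Cd86 and may overlap the sort, so their rise may have been set by it. Their sum went from 719 to 737 CPM in immature to 5050 to 5878 CPM in mature libraries. Dendritic cell markers summed to 11100 to 11956 and 12733 to 18784 CPM, mostly Cd74. Of these 9 markers, 2 were higher in mature cells by both criteria, Flt3 (log2 fold change 3.77) and Zbtb46 (2.05), and 1 was lower, Cd209a (-3.54). Flt3 averaged 0.438 CPM in immature and 5.97 CPM in mature libraries, and Cd209a 0.531 and 0.0431 CPM.

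Markers of further cell types were read as well, and genes within a list differed in level. The part of such cells in the Fc receptor values was not tested. Neutrophil markers summed to 367 to 379 CPM in immature and 55.8 to 87.1 CPM in mature libraries. The collagenase Mmp8 was the largest part (354 to 367 and 34.7 to 59.2 CPM). The chemokine receptor Cxcr2 was next (10.3 to 12.7 and 17.2 to 26.6 CPM). S100a8 had at most 2.29 CPM in a library, and S100a9, Ly6g and Mpo at most 0.473 CPM. Mast cell and basophil markers summed to 6.97 to 8.92 and 34.8 to 44.8 CPM, mostly Kit, with Mcpt4 at or under 3 counts in every library. B cell markers reached 1.36 CPM, T and NK cell markers 28.9 CPM, of which Klrk1 was the largest, and epithelial markers 77.3 CPM, mostly Cdh1. In mature replicate 1, the mature library with the least heart muscle RNA, Fcgr1 and Fcgr3 lay within the range of the other mature libraries, Fcer1g and Fcgr2b below it, and Fcgr4 just above it.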

How the data were processed

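RNA-seq libraries (poly(A) RNA, paired-end reads of 150 bases, second strand marked with dUTP) of 3 immature and 4 mature BMDC samples were analysed, grouped by their sample labels. The authors deposited counts per gene and library, whole numbers without normalization, and FPKM values, which are counts scaled by library total and by an exon length about that of the union of all annotated exons. The submitters' processing notes name cutadapt 1.9, HISAT2 2.2.1, StringTie 2.1.6, DESeq2, edgeR and the build mm9, with no roles given, and the strand setting of the counting is not given in the sources used here. Gene coordinates in the deposited table equal GENCODE M21 on GRCm38 for 87.2% of the 28588 genes shared with it, and they are given here as GRCm38. Columns with the authors' own comparisons were not used.

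Tests on the counts used edgeR 4.0.16 in R 4.3.3 (filter on low counts, TMM normalization, quasi-likelihood test on all 7 libraries, Benjamini-Hochberg adjustment over 17461 genes). The criteria, a log2 fold change of 1 or more in size and an adjusted p below 0.05, follow the paper, whose text names no test. Standard errors were taken as the log2 fold change over the square root of F, without its sign. Groups whose libraries all had 3 counts or fewer were set to a floor of 3 counts per library, which covers counting error only. Scripts were tested on simulated data.

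The members and the gene lists were chosen with earlier results of these data known. Genes named are all members, the listed genes past the criteria (the 3 with the largest F in each direction, or all of them in lists of under 15 tested genes), up to 6 neighbours within 250 kb past the criteria by F, the 2 genes most like each member, and Cd80, Cd86 and Itgax, with exceptions marked. Alternatives were RLE, upper-quartile and no normalization factors, DESeq2 1.42.0, limma 3.58.1 on log2(FPKM + 1) and log2(FPKM + 0.1), no filter, an FPKM filter, each library left out, a replicate block and adjusted p alone. Leaving out mature replicates 1 and 3 together, and the coding transcript length, were added after the data were seen. Coding sequences were aligned with Biopython 1.88. Promoter bases are RefSeq's, on GRCm38.p6.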

Additional observations from a re-analysis of the deposited data

Results flagged for a closer look

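The FPKM of Fcgr1 reached 8.02 in mature replicate 4, whereas the remaining mature libraries lay at 6.47 to 6.61. The gap to the nearest library was 0.910 of the range of the group, over Dixon's critical value for 4 samples. Of 17 groups of values compared in this way 1 was singled out, and 0.85 would be by chance. The fall of Fcgr1 did not rest on that library: without mature replicate 4 its log2 fold change was -2.81.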

How the results depend on the processing

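All 6 Fc receptor genes kept their direction under the alternatives, and the 5 lower genes stayed past both criteria in each. The median log2 fold change of all tested genes, 0.05, became 0.16 with upper-quartile normalization and with total counts, 0.18 with DESeq2 and 0.17 without the filter, and the split of higher to lower calls went from 2300 and 1737 to 2590 and 1504 and to 2575 and 1509 with the first 2 of these. Fcgrt had an adjusted p under 0.05 at a log2 fold change of 0.46 with upper-quartile normalization, 0.44 with total counts, 0.41 and 0.43 with limma on log2(FPKM + 1) and log2(FPKM + 0.1), 0.40 with FPKM of at least 5 in 3 libraries, and 0.22 without mature replicates 1 and 3. Leaving out 1 library at a time gave 0.21 to 0.42, the lowest without mature replicate 3. The cause was not tested.

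By adjusted p alone, which drops the fold change criterion, the counts were 20 for ITAM signalling and 10 for inhibitory signalling. They were 18 for phagocytosis and 6 for the Fcgrt list. With limma on log2(FPKM + 1) they were 1 for the other Fc receptors, 3 for phagocytosis and 6 for the neighbours. With log2(FPKM + 0.1) the other Fc receptors had 2, and with FPKM of at least 5 they had 1 and the neighbours 3, where fewer genes were tested. Rab11fip5, the single call in the Fcgrt list, was lost (count 0) with upper-quartile normalization, total counts and both limma fits. It was also lost with the FPKM filter and without mature replicates 1 and 3. With 1 library left out the count was 0 to 1, and 0 without immature replicate 3 or mature replicate 3. The activating share depended on the scale: 66.27% and 73.19% in CPM, 37.67% and 30.23% without Fcgr3 and 68.04% and 75.31% with coding transcript lengths, immature first.

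Replicate numbers are shared between groups in the labels. The deviations of same-numbered libraries from their group means had r = 0.03, 0.00 and 0.01 across genes. The mature deviations also hold the length trend of replicate 3 and the heart muscle RNA. Whether same-numbered libraries shared a mouse, culture or sort is therefore not known. With a replicate block 5 members passed again, and the calls over all genes went from 4037 to 3616. With 3 and 4 libraries per group, small differences such as that of Fcgrt could not be resolved.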
